A study of Sus scrofa with 6 samples.

Results

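Major histocompatibility complex (MHC) class II molecules carry peptides from the endosomes to the cell surface, where CD4+ T cells read them. In the pig the complex is called the swine leukocyte antigen (SLA) complex. An alpha and a beta chain, SLA-DRA with SLA-DRB1 or SLA-DQA1 with SLA-DQB1, form the surface molecule, and CD74, the invariant chain, guards the empty groove on the way. SLA-DMA and SLA-DMB form the DM heterodimer that exchanges the remnant of CD74 for a peptide, SLA-DOA is a chain of DO, which restrains DM, and CIITA is the transactivator without which the class II genes are barely transcribed. Class II is best known from dendritic cells, macrophages and B cells, and interferon gamma can induce it in other cells.

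These genes were examined in the ventricular myocardium of 3 sham and 3 DAC Tibetan minipigs. In the DAC minipigs the descending aorta was constricted, which loads the left ventricle with pressure, and the sham minipigs had the thoracotomy without the constriction. Per the methods of the study, the tissue was taken weeks after the surgery, and the paper calls the overload chronic. All animals were male per the methods of the study, each library came from 1 minipig, and the minipigs keep their numbers from the labels, 1 to 3 for sham and 4 to 6 for DAC replicates. The deposited values are FPKM, which corrects the fragments of a gene for transcript length and for the size of the library, so levels can be set side by side between genes.

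The members were chosen by gene name: 9 names were listed, and 7 of them have a row of that name among the 13288 rows of the table, namely SLA-DRA, SLA-DRB1, SLA-DQB1, SLA-DMA, SLA-DMB, SLA-DOA and CIITA. CD74 and SLA-DQA1 have no row of that name. One row without a name, ENSSSCG00000033262, has the identifier that a table of gene identifiers gives for CD74, and it overlaps the RefSeq position of CD74 on chromosome 2. Another row without a name, ENSSSCG00000001456, spans the whole RefSeq position of SLA-DQA1. It is called here the unnamed row at SLA-DQA1, since it also reaches over SLA-DQB1 and the pseudogenes SLA-DQB2 and SLA-DRB5. Both rows are described beside the 7 members and are not counted with them.

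Of the members, 6 lie in a stretch of 357902 bp on chromosome 7 of the Sscrofa11.1 build (susScr11), from 24825053 to 25182954. SLA-DRA (ENSSSCG00000001453) is at 24825053 to 24835160 on the plus strand. On the minus strand lie SLA-DRB1 (ENSSSCG00000001455) at 24881775 to 24914053, SLA-DQB1 (ENSSSCG00000001457) at 24943107 to 24977297, SLA-DMB (ENSSSCG00000001469) at 25117685 to 25125847, SLA-DMA (ENSSSCG00000001470) at 25133214 to 25138348 and SLA-DOA (ENSSSCG00000001472) at 25178086 to 25182954. CIITA (ENSSSCG00000007901) lies apart on chromosome 3, at 32172214 to 32230780 on the minus strand. The position of every member overlaps that of the same symbol in RefSeq, but several rows are longer than the RefSeq genes: 10108 bp against 5614 bp for SLA-DRA, 32279 bp against 12631 bp for SLA-DRB1, 34191 bp against 8205 bp for SLA-DQB1 and 31633 bp against 7715 bp for CD74. What the added stretches contribute to the levels of these genes was not tested, so their order and ratios are uncertain too. SLA-DQB1 overlaps the unnamed row at SLA-DQA1 on the opposite strand, and no source used here says that the strand was used in the counting, so their fragments may be mixed. Class II chains also vary between animals and have near-identical copies, and how fragments shared between copies were assigned is not given in the sources used here, so the levels of SLA-DRB1, SLA-DQB1 and the unnamed row at SLA-DQA1 are uncertain.

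All 7 cardiomyocyte markers (MYH7, TNNT2, ACTN2, MYL2, TNNI3, RYR2 and MYBPC3) were in the table, with a summed level between 11989 and 15118 FPKM per sample. The sum over the whole table was between 281377 and 308771 FPKM per sample. The depth is unknown, since FPKM does not hold read numbers, and the spread between minipigs is therefore the only error given. The moderated test of limma was run on log2(FPKM + 1) in the 11029 genes that reached 1 FPKM in 3 or more minipigs. A differentially expressed gene (DEG) is here a gene with an unadjusted P under 0.05 in that test. Fold changes are on the log2(FPKM + 1) scale, where low genes show less than their true change. With 3 minipigs against 3, an exact two-sided permutation P cannot be under 0.10.

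All of the 7 members passed the filter, and none of them was a DEG, against 8.51% of all genes tested. The DAC and sham minipigs overlapped in every member, and the groups did not overlap in 14.9% of the genes tested. With only 7 members, both counts are near these shares over all genes. DAC minipigs had the higher mean in 6 of the 7 members, SLA-DRB1 being the exception, and in 46.6% of all genes tested. The median log2 fold change of the members was 0.13 beside -0.016 over all genes tested. Without DAC replicate 6, the median of the members was -0.071. The adjusted P of the members from limma with Benjamini-Hochberg adjustment was between 0.695 and 0.981, and no gene of the table had an adjusted P under 0.05. In bulk tissue, a change in the number of cells that carry class II and a change in the RNA per cell cannot be told apart.

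**Figure D1:**
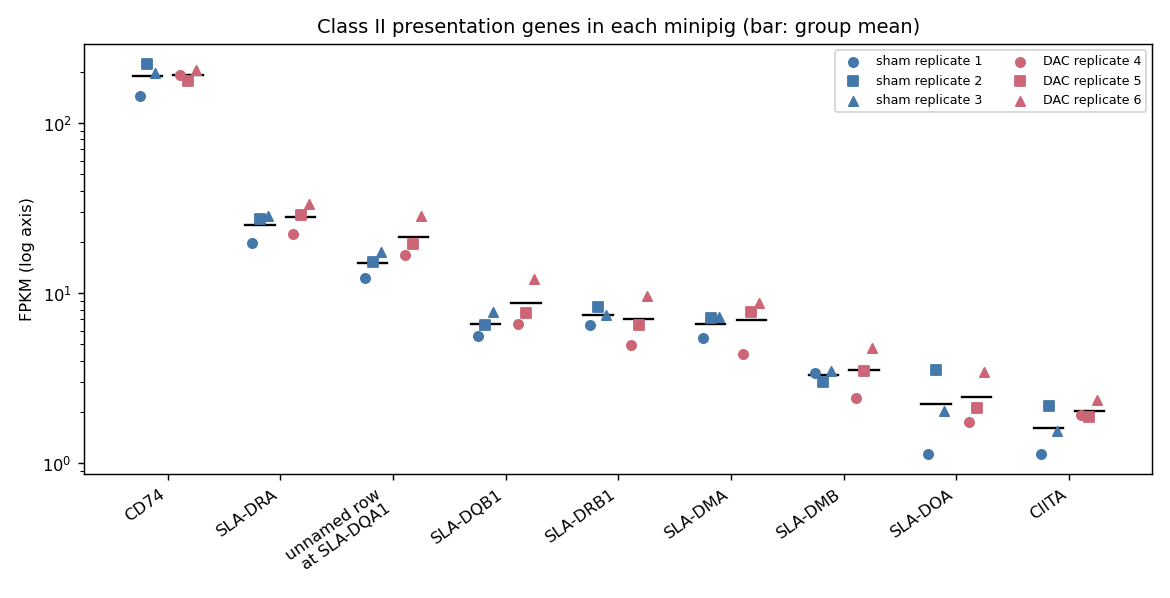
FPKM on a log axis for the 7 members, CD74 and the unnamed row at SLA-DQA1, ordered by mean level, with 1 point per minipig and a bar at each group mean. CD74 lies above all others, CIITA has the lowest mean, and sham and DAC minipigs overlap in every gene.

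The levels spanned a wide range. CD74 had a mean of 189 FPKM over the 6 minipigs, above 98.95% of the rows of the table. SLA-DRA followed with 26.6 FPKM and the unnamed row at SLA-DQA1 with 18.2 FPKM. The beta chains and the alpha chain of DM lay close together, with 7.67 FPKM for SLA-DQB1, 7.19 FPKM for SLA-DRB1 and 6.79 FPKM for SLA-DMA. SLA-DMB was at 3.41 FPKM, SLA-DOA at 2.33 FPKM and CIITA at 1.82 FPKM. Between neighbours in this order, the ranges over the 6 minipigs were separate from CD74 to SLA-DRA and from the unnamed row at SLA-DQA1 to SLA-DQB1, and they overlapped between all other neighbours. Within each minipig, SLA-DRA exceeded the unnamed row at SLA-DQA1 and SLA-DMA exceeded SLA-DMB in 6 of 6, while SLA-DQB1 exceeded SLA-DRB1 in 4 of 6. SLA-DRB1 exceeded SLA-DMA, SLA-DMB exceeded SLA-DOA and SLA-DOA exceeded CIITA in 5 of 6 each.

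SLA-DRA, the alpha chain of the DR molecule, was at 19.7, 27.3 and 28.5 FPKM in sham replicates 1 to 3 and at 22.3, 28.7 and 33.4 FPKM in DAC replicates 4 to 6. The lowest sham and the lowest DAC minipig both lay well under the rest, and the groups overlapped. The means were 25.1 ± 4.77 FPKM in sham and 28.1 ± 5.59 FPKM in DAC minipigs (mean ± SD, n = 3 each). This was a log2 fold change of 0.16 (SE 0.19, 95% interval from -0.30 to 0.61), and limma gave an adjusted P of 0.838. A ratio of FPKM + 1 under 0.812 or above 1.53 therefore lies outside the interval of SLA-DRA.

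SLA-DRB1, its partner beta chain, was at 6.45, 8.28 and 7.42 FPKM in the sham minipigs and at 4.92, 6.49 and 9.60 FPKM in the DAC minipigs. The DAC group held both the lowest and the highest of the 6 values, and its highest value was 1.95 times its lowest. The mean was 7.38 ± 0.916 FPKM in sham and 7.005 ± 2.38 FPKM in DAC minipigs (mean ± SD, n = 3 each), which is a log2 fold change of -0.10 (95% interval from -0.61 to 0.40). The level of SLA-DRA was between 3.05 and 3.84 times that of SLA-DRB1 in the sham minipigs, and it was 4.52, 4.42 and 3.48 times in DAC replicates 4 to 6. This ratio overlapped between the groups (log2 difference 0.28, exact two-sided permutation P = 0.20, adjusted P = 0.40 over 4 ratios compared).

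SLA-DQB1, the beta chain of DQ, was at 5.57, 6.46 and 7.76 FPKM in the sham minipigs and at 6.55, 7.62 and 12.1 FPKM in the DAC minipigs. DAC replicate 6 stood far above the other 5 minipigs, which all lay under 8 FPKM. The mean was 6.60 ± 1.10 FPKM in sham and 8.75 ± 2.93 FPKM in DAC minipigs (mean ± SD, n = 3 each). The log2 fold change of 0.33 (SE 0.22, 95% interval from -0.19 to 0.85, adjusted P = 0.695 from limma) had the smallest P among the members, 0.178 before adjustment.

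The unnamed row at SLA-DQA1 was at 12.2, 15.3 and 17.5 FPKM in the sham minipigs and at 16.7, 19.4 and 28.3 FPKM in the DAC minipigs. Only DAC replicate 4 fell into the range of the sham group. Its log2 fold change was 0.47 (SE 0.21, 95% interval from -0.033 to 0.97), with an unadjusted P of 0.0631 and an adjusted P of 0.596 from limma. In limma, this row was a DEG after median scaling (unadjusted P = 0.0455), after quantile normalization (unadjusted P = 0.0360), with mitochondrially encoded genes left out (unadjusted P = 0.0393), with sample weights (unadjusted P = 0.0483), without sham replicate 3 (unadjusted P = 0.0496) and without DAC replicate 4 (unadjusted P = 0.0275). It was not a DEG without any other single minipig, with a log2 fold change of 0.26 without DAC replicate 6. Its level was between 2.19 and 2.37 times that of SLA-DQB1 in the sham minipigs and between 2.35 and 2.55 times in the DAC minipigs (exact two-sided permutation P = 0.20, adjusted P = 0.40 over 4 ratios).

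The chains of DM, which loads the peptide, had almost the same means in both groups. SLA-DMA was at 5.43, 7.14 and 7.27 FPKM in the sham minipigs and at 4.37, 7.75 and 8.76 FPKM in the DAC minipigs. SLA-DMB was at 3.39, 3.00 and 3.47 FPKM in the sham minipigs and at 2.41, 3.48 and 4.72 FPKM in the DAC minipigs. In both chains the DAC values enclosed the sham values, with DAC replicate 4 lowest and DAC replicate 6 highest. The log2 fold change was 0.028 (95% interval from -0.53 to 0.58) for SLA-DMA and 0.050 (95% interval from -0.40 to 0.50) for SLA-DMB. The ratio of SLA-DMA to SLA-DMB was 1.60, 2.38 and 2.09 in the sham minipigs and 1.82, 2.23 and 1.86 in the DAC minipigs (exact two-sided permutation P = 1, log2 difference -0.028).

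SLA-DOA, a chain of the DM inhibitor DO, was at 1.13, 3.51 and 2.02 FPKM in the sham minipigs and at 1.75, 2.11 and 3.43 FPKM in the DAC minipigs. It was the only member whose highest value was in a sham minipig, and the highest sham value was 3.10 times the lowest. Its log2 fold change of 0.13 had the widest interval of the members, from -0.57 to 0.83. The other DO chain, listed in the table as HLA-DOB, did not reach 1 FPKM in any minipig, with a highest value of 0.508 FPKM in DAC replicate 6, and it was not tested.

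CIITA was at 1.13, 2.16 and 1.54 FPKM in the sham minipigs and at 1.92, 1.86 and 2.34 FPKM in the DAC minipigs. The DAC values were close together and lay within or just above the range of the sham group. The mean was 1.61 ± 0.519 FPKM in sham and 2.04 ± 0.258 FPKM in DAC minipigs (mean ± SD, n = 3 each), which is a log2 fold change of 0.24 (SE 0.17, 95% interval from -0.15 to 0.63, adjusted P = 0.707 from limma). CIITA was a DEG in 1 alternative, without sham replicate 2, the sham minipig in which it was highest (log2 fold change 0.38, unadjusted P = 0.0419).

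CD74, at chromosome 2 from 151402212 to 151433844 on the minus strand, was at 145, 223 and 196 FPKM in the sham minipigs and at 192, 176 and 204 FPKM in the DAC minipigs. All DAC values lay inside the range of the sham group. The log2 fold change was 0.042 (95% interval from -0.36 to 0.44, adjusted P = 0.957 from limma). SLA-DRA was at 0.136, 0.122 and 0.146 times the level of CD74 in the sham minipigs and at 0.116, 0.163 and 0.163 times in DAC replicates 4 to 6, a ratio that does not depend on the scaling of the sample. The log2 difference in this ratio was 0.12 (exact two-sided permutation P = 0.60, adjusted P = 0.80 over 4 ratios).

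**Figure D2:**
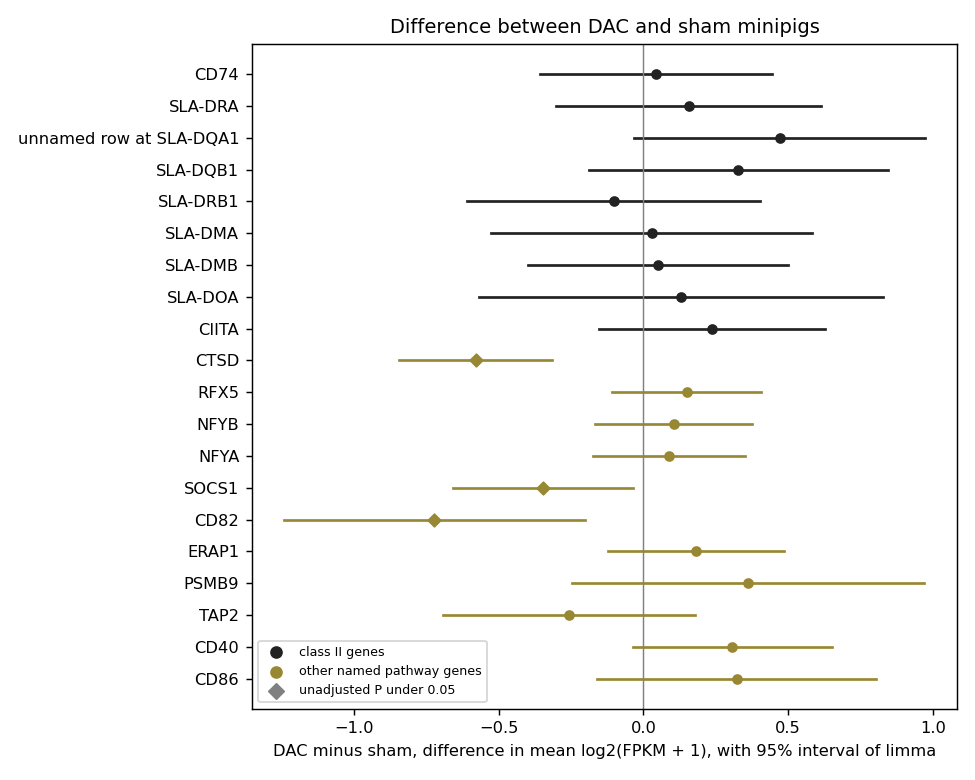
Difference between DAC and sham minipigs in mean log2(FPKM + 1) with the 95% interval of limma, for the class II genes (black) and for the named genes of the pathway lists (ochre), with diamonds for DEGs. The interval of every class II gene includes 0, and the DEGs are CTSD, SOCS1 and CD82, all lower in the DAC group.

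The spread between minipigs was wide in the members. The SD within the groups on the log2(FPKM + 1) scale was between 0.22 for CIITA and 0.46 for SLA-DOA, while its median over all genes tested was 0.18, and between 64.7% and 93.5% of the genes tested had a smaller SD than the respective member. The SD exceeded the size of the log2 fold change in 5 of the 7 members, all but SLA-DQB1 and CIITA. For 5 of the 7 members the SD of the DAC minipigs exceeded that of the sham minipigs, and this was so in 58.5% of all genes tested. In SLA-DRB1, SLA-DMA and SLA-DMB, the SD was 0.42, 0.46 and 0.37 in the DAC group and 0.16, 0.20 and 0.087 in the sham group. CIITA went the other way, with 0.12 in the DAC group and 0.29 in the sham group.

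The same minipigs were high or low across the members. DAC replicate 6 was the highest of the 6 in 6 of the 7 members, and it was the highest in 17.6% of all genes tested. Sham replicate 1 was the lowest in 4 members and DAC replicate 4 in the other 3. On average over the members, log2(FPKM + 1) was 0.40 above the mean of the 6 minipigs in DAC replicate 6, 0.30 below it in sham replicate 1 and 0.27 below it in DAC replicate 4. The remaining minipigs were between 0.022 and 0.10 above it. Over all genes tested, this deviation was between -0.052 and 0.031 in the 6 minipigs. The members together made up 0.152, 0.201 and 0.201 of every 1000 FPKM in the sham minipigs and 0.157, 0.188 and 0.255 in the DAC minipigs.

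**Figure D3:**
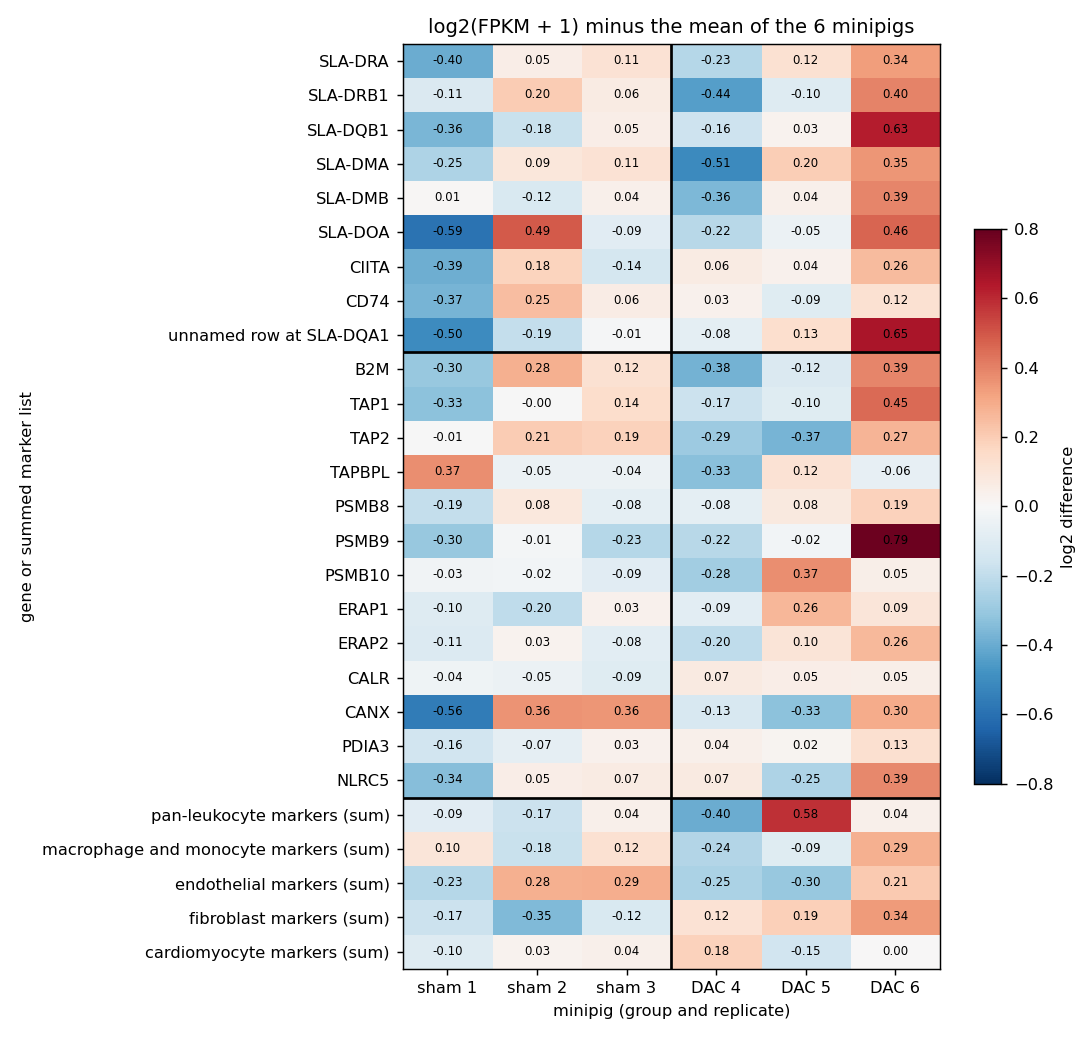
Deviation of log2(FPKM + 1) from the mean of the 6 minipigs (colour and number in each cell) for class II genes (top), class I pathway genes (middle) and summed marker lists (bottom), with sham minipigs to the left of the vertical line. DAC replicate 6 is above the mean in every class II gene, and sham replicate 1 and DAC replicate 4 are mostly below it.

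The sign of most differences depended on which minipig was included. Without DAC replicate 6, the log2 fold change was -0.14 for SLA-DMA, -0.13 for SLA-DMB, -0.071 for SLA-DOA and -0.0090 for CD74. Without sham replicate 1, it was -0.0047 for SLA-DRA, -0.089 for SLA-DMA, -0.13 for SLA-DOA and -0.13 for CD74. SLA-DRB1 turned to 0.094 without DAC replicate 4, and SLA-DMA turned to -0.063 without DAC replicate 5. SLA-DQB1 and CIITA kept a higher mean in the DAC group with each minipig left out, with a log2 fold change between 0.096 and 0.49 for SLA-DQB1 and between 0.10 and 0.38 for CIITA. The median over the 7 members was then between -0.071 and 0.27.

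**Figure D4:**
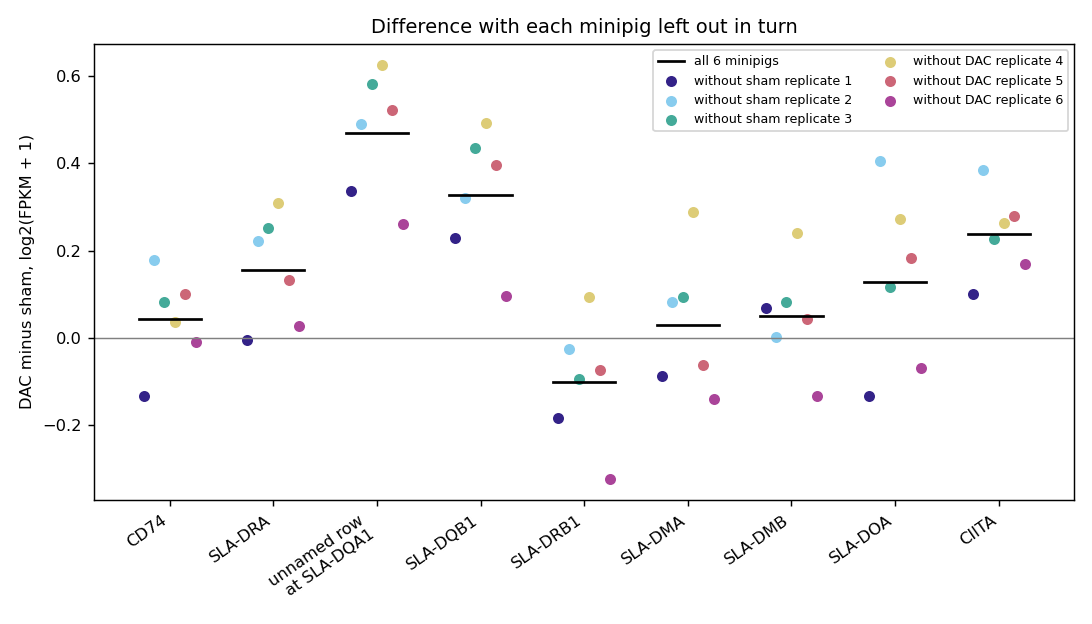
Difference between DAC and sham minipigs in log2(FPKM + 1) with all 6 minipigs (bar) and with each minipig left out in turn (points), for each class II gene. Points lie on both sides of 0 for SLA-DRA, SLA-DRB1, SLA-DMA, SLA-DMB, SLA-DOA and CD74.

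The enzymes that cut or reduce antigen and CD74 in the endosome were read in a list for antigen loading and peptide cleavage, which also holds the DO chain HLA-DOB. Of its 12 genes, 11 were in the table and 9 were tested. One of the 9 was a downregulated DEG and none was upregulated, beside 5.27% and 3.25% of all genes tested. CTSD, the aspartic protease cathepsin D, was at 195, 197 and 200 FPKM in the sham minipigs and at 143, 116 and 138 FPKM in the DAC minipigs. All DAC minipigs lay below all sham minipigs, and the log2 fold change was -0.58 (SE 0.11, adjusted P = 0.379 from limma). The groups did not overlap in 14.9% of all genes tested. The cathepsin CTSC went the other way, at 34.9, 24.1 and 28.0 FPKM in sham and 37.0, 35.7 and 36.3 FPKM in DAC minipigs. It was not a DEG (log2 fold change 0.33, unadjusted P = 0.0533 from limma). CTSL, below the filter and not tested, was also higher in every DAC minipig than in every sham minipig. CTSS, the cathepsin that trims CD74, was at 2.64 ± 0.393 FPKM in sham and 3.40 ± 1.10 FPKM in DAC minipigs (mean ± SD, n = 3 each) and was not a DEG. IFI30, which reduces disulfide bonds of antigens, was at 3.35, 1.66 and 2.01 FPKM in the sham minipigs and at 1.79, 5.65 and 3.23 FPKM in the DAC minipigs and was not a DEG either. CTSC, CTSL, CTSS and IFI30 were picked after their values were seen. The median log2 fold change of the 9 genes was 0.073.

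CIITA acts on class II promoters through a complex of RFX, CREB and NF-Y proteins. Of 8 listed genes of this complex, 7 were in the table, all 7 were tested and none was a DEG, against 8.51% of all genes tested. Their log2 fold changes were between 0.0081 and 0.15. RFX5, a subunit of RFX, had the smallest P, with 1.24, 1.36 and 1.52 FPKM in the sham minipigs and 1.70, 1.51 and 1.68 FPKM in the DAC minipigs (log2 fold change 0.15, 95% interval from -0.11 to 0.41). The groups overlapped in RFX5 by a narrow margin. The NF-Y subunits NFYB and NFYA had log2 fold changes of 0.10 and 0.088.

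Interferon gamma induces CIITA through JAK kinases and IRF1. Of 11 listed genes of this route, 10 were in the table and tested, and IFNG, interferon gamma itself, has no row. SOCS1, a feedback inhibitor of JAK kinases, was the one DEG, and it was downregulated, beside 5.27% of all genes tested. It was at 1.91, 2.38 and 1.59 FPKM in the sham minipigs and at 1.22, 1.37 and 1.34 FPKM in the DAC minipigs. The groups did not overlap, as in 14.9% of all genes tested. The log2 fold change of SOCS1 was -0.35 (SE 0.13, unadjusted P = 0.0327, adjusted P = 0.564 from limma). In limma, SOCS1 lost its call without sham replicate 1 (unadjusted P = 0.0673), sham replicate 2 (unadjusted P = 0.109), DAC replicate 4 (unadjusted P = 0.0834), DAC replicate 5 (unadjusted P = 0.0536) or DAC replicate 6 (unadjusted P = 0.0636). IRF1, picked after its values were seen, was at 5.71 ± 1.37 FPKM in sham and 7.87 ± 2.28 FPKM in DAC minipigs (mean ± SD, n = 3 each), was highest in DAC replicate 6 at 10.4 FPKM and was not a DEG. The median log2 fold change of the 10 genes was 0.018.

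Surface class II is removed by MARCH ubiquitin ligases and sits in membrane domains built by tetraspanins. Of 8 listed genes for this turnover, 7 were tested and 1 was a downregulated DEG, beside 5.27% of all genes tested. The median log2 fold change of the 7 was -0.25, and 2 of them had the higher mean in the DAC group. CD81, RAB7A and the MARCH ligase MARCHF8 had log2 fold changes of -0.25, -0.56 and -0.28 and were not DEGs. These 3 genes were picked after their values were seen. CD82, a tetraspanin, was at 15.4, 11.6 and 16.8 FPKM in the sham minipigs and at 5.90, 10.4 and 9.40 FPKM in the DAC minipigs. Every DAC minipig was below every sham minipig, and the groups did not overlap in 14.9% of all genes tested. The log2 fold change of CD82 was -0.72 (SE 0.22, unadjusted P = 0.0131, adjusted P = 0.511 from limma). When each gene's variance was estimated without moderation, the unadjusted P of CD82 was 0.0549.

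The class I route, which presents peptides from the cytosol to CD8+ T cells, was read for comparison. Of 21 listed genes, 13 were in the table and tested and none was a DEG, against 8.51% of all genes tested. Their median log2 fold change was 0.12. The classical SLA class I chains SLA-1, SLA-2 and SLA-3 have no row of those names. Across minipigs, 8 of the 13 genes were highest in DAC replicate 6, as were 6 of the 7 class II members, beside 17.6% of all genes tested. B2M, the light chain of class I, was at 21.9, 33.4 and 29.7 FPKM in the sham minipigs and at 20.7, 25.0 and 36.1 FPKM in the DAC minipigs. The row of B2M overlaps that of SPG11 on the opposite strand, so their fragments may be mixed. TAP1, a subunit of the peptide transporter, was at 4.73, 6.17 and 6.93 FPKM in the sham minipigs and at 5.38, 5.72 and 8.83 FPKM in the DAC minipigs. Both genes were lowest in the same minipigs as the class II members. The smallest P in the list were those of ERAP1, PSMB9 and TAP2. ERAP1, which trims peptides in the endoplasmic reticulum, was at 6.25, 5.77 and 6.97 FPKM in the sham minipigs and at 6.34, 8.35 and 7.31 FPKM in the DAC minipigs, with overlapping groups and a log2 fold change of 0.18 (95% interval from -0.12 to 0.48). PSMB9, a subunit of the immunoproteasome, was at 5.31 FPKM in DAC replicate 6 and between 1.97 and 2.63 FPKM in the other 5 minipigs, with a log2 fold change of 0.36 (95% interval from -0.25 to 0.97). TAP2, the other subunit of the transporter, was at 3.82, 4.58 and 4.51 FPKM in the sham minipigs and at 2.96, 2.74 and 4.85 FPKM in the DAC minipigs. Its log2 fold change was -0.26 (95% interval from -0.69 to 0.18), and without DAC replicate 6, the highest minipig, it was -0.46 and TAP2 was a DEG (unadjusted P = 0.0111 from limma). B2M and TAP1 were picked after their values were seen.

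TAP1, TAP2, PSMB8 and PSMB9 lie within the class II region, and the rows of PSMB8 and PSMB9 overlap each other and those of both TAP genes. Between the first and the last member on chromosome 7 the table holds 10 other rows, of which 8 were tested and none was a DEG. Of the 10 rows, 7 were highest in DAC replicate 6, beside 17.6% of all genes tested. These 7 include the TAP and PSMB genes named here, which were already counted in the class I list. They also include the unnamed row at SLA-DQA1 and HLA-DOB, so the counts are not separate observations. BRD2, a bromodomain protein encoded between SLA-DMA and SLA-DOA, was at 24.4, 27.0 and 26.4 FPKM in the sham minipigs and at 26.3, 24.1 and 24.5 FPKM in the DAC minipigs, and was not highest in DAC replicate 6.

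Genes were also ranked by how closely their log2(FPKM + 1) followed the mean of the 7 members over the 6 minipigs, as a description with no test. The 5 highest of 11022 genes were MRPL41 (Pearson's r = 0.989, Spearman's rho = 0.771), RNF2 (r = 0.989, rho = 0.771), TPM1 (r = 0.985, rho = 0.829), H2AC6 (r = 0.984, rho = 0.943) and the unnamed gene ENSSSCG00000007719 (r = 0.979, rho = 0.886). With so many genes and 6 points, high coefficients describe the ranking alone. TAP1 was at rank 49 (r = 0.922), B2M at rank 52 (r = 0.921), PSMB8 at rank 68 (r = 0.908), ERAP2 at rank 70 (r = 0.908) and PSMB9 at rank 117 (r = 0.883), and the other 8 class I genes were between ranks 673 and 7041. High ranks were not limited to class I genes. CTSB, of the antigen loading list, was at rank 65 (r = 0.910) and the endothelial marker CDH5 at rank 275 (r = 0.808). The other tested genes of these lists were between ranks 743 and 7805. CTSB and CDH5 were picked after their values were seen. The unnamed row at SLA-DQA1 was at rank 193 (r = 0.844) and CD74 at rank 997 (r = 0.631).

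Markers of cells that could carry class II were read in the same samples. All 14 macrophage and monocyte markers were in the table. Their sum was between 154 and 190 FPKM in the sham group and between 148 and 213 FPKM in the DAC group. It was lowest in DAC replicate 4 and highest in DAC replicate 6. In sham replicate 1, which was low in the class II members, the sum was 187 FPKM. Of the 14 markers, 4 were highest in DAC replicate 6. CD163, a scavenger receptor of resident macrophages, was the one DEG among the 14, at 11.2 ± 1.33 FPKM in sham and 8.05 ± 0.975 FPKM in DAC minipigs (mean ± SD, n = 3 each). It was downregulated, as were 5.27% of all genes tested. Of 5 pan-leukocyte markers, 4 were in the table, and their sum was highest in DAC replicate 5 at 34.8 FPKM and between 17.2 and 23.6 FPKM in the other 5 minipigs. The 8 endothelial markers summed to 118, 169 and 169 FPKM in the sham minipigs and to 116, 112 and 160 FPKM in the DAC minipigs, so that sham replicate 1 and DAC replicate 4 were low here as well, but so was DAC replicate 5. Of the endothelial markers, KDR and EMCN were upregulated and VWF and CLDN5 downregulated DEGs, beside 3.25% and 5.27% of all genes tested. The 6 fibroblast markers summed to between 411 and 482 FPKM in the sham group and between 570 and 666 FPKM in the DAC group. The sum was again highest in DAC replicate 6. COL1A1, COL3A1 and LUM were upregulated DEGs, beside 3.25% of all genes tested. PDGFRA, DCN and TCF21 were not DEGs, with log2 fold changes of 0.24, -0.012 and -0.022. COL1A1 had a mean of 94.0 FPKM in sham and 165 FPKM in DAC minipigs, and COL3A1 of 173 and 238 FPKM. The part of these cells in the levels of the class II genes was not tested.

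Most lymphocyte markers had no row or stayed under 1 FPKM. Of the B cell markers, MS4A1, CD79B, PAX5 and BLK have no row, FCRLA stayed under 1 FPKM, and CD79A, whose row overlaps RPS19 and ARHGEF1, was at 6.77 ± 0.883 FPKM in sham and 7.54 ± 0.424 FPKM in DAC minipigs (mean ± SD, n = 3 each). Of 7 T cell markers, CD3E, CD4 and CD5 were listed and none reached 1 FPKM in any minipig, with a sum between 0.837 and 1.56 FPKM in the sham group and between 0.759 and 1.88 FPKM in the DAC group. Among 9 dendritic cell markers, FLT3, CLEC9A, ITGAX and CCR7 have no row, and XCR1 and BATF3 stayed under 1 FPKM. The other 3 were expressed, with ZBTB46 between 3.37 and 6.82 FPKM, FCER1A between 1.32 and 2.27 FPKM and IRF8, whose row overlaps COX4I1, between 12.2 and 86.9 FPKM over the 6 minipigs. The sum of this list was between 21.0 and 37.4 FPKM in the sham group and between 23.6 and 94.2 FPKM in the DAC group, where the highest value came from IRF8 in DAC replicate 4. None of the 5 eosinophil markers has a row.

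T cell contact through class II also needs costimulation. Of 14 listed genes for the T cell side and for costimulation, 4 were in the table and 2, CD40 and CD86, were tested. CD40 was at 1.88, 1.49 and 2.23 FPKM in the sham minipigs and at 2.29, 2.30 and 3.04 FPKM in the DAC minipigs. Its groups did not overlap, by a margin of less than 0.1 FPKM, and it was not a DEG (log2 fold change 0.31, 95% interval from -0.037 to 0.65, unadjusted P = 0.0730 from limma). In limma, CD40 was a DEG with mitochondrially encoded genes left out (unadjusted P = 0.0488) and without sham replicate 3 (unadjusted P = 0.0457). CD86 was at 0.486, 0.649 and 1.33 FPKM in the sham minipigs and at 1.07, 1.01 and 1.68 FPKM in the DAC minipigs, with overlapping groups and a log2 fold change of 0.32 that was called by limma without sham replicate 3 (unadjusted P = 0.0279).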

How the data were processed

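RNA from the ventricular myocardium of 3 sham and 3 DAC minipigs was sequenced by the authors from libraries made with a NEBNext Ultra kit. They deposited 1 table of FPKM with a column per minipig. HISAT2 and susScr11 are named in the submitters' processing notes. The program that made the FPKM is not given in the sources used here. The depth is unknown, so no counting error is given. None of the deposited samples was pooled or left out.

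The log2(FPKM + 1) was computed (pseudocount 1), and the groups were compared by limma 3.58.1 in R 4.3.3 (moderated variance with a mean trend, no covariates) in genes reaching 1 FPKM in 3 or more minipigs, and P was adjusted by the Benjamini-Hochberg method over all 11029 genes tested. Ratios were compared with exact two-sided permutation tests. Where the table has no name, symbols came from a table of gene identifiers, for 520 of 13288 rows. The steps were tested on simulated data. Named are all members, every DEG of each pathway list or otherwise the 3 genes of smallest P, the 5 genes most like the members, and genes said to be picked after their values were seen. The members and lists were chosen with earlier results of these data known. Alternatives were other scalings, pseudocounts, filters and variance estimates, and each minipig left out.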

Additional observations from a re-analysis of the deposited data

How the results depend on the processing

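In 95 fits of single members under the alternatives, 1 gave a DEG (CIITA without sham replicate 2) and 8 turned the sign, all of them with a minipig left out. With each minipig left out in turn, the number of upregulated members was between 0 and 1 and that of downregulated members was 0, the median log2 fold change of the members was between -0.071 and 0.27, and the log2 difference in the ratio of SLA-DRA to CD74 was between 0.037 and 0.28. The ranges for single genes were -0.0047 to 0.31 for SLA-DRA, -0.33 to 0.094 for SLA-DRB1, -0.14 to 0.29 for SLA-DMA, -0.13 to 0.24 for SLA-DMB, -0.13 to 0.41 for SLA-DOA and -0.13 to 0.18 for CD74. The number of DEGs over all genes was 939, between 600 (without sham replicate 1) and 1029 with a minipig left out, and 579 with a minimum of 5 FPKM, where fewer genes were tested and SLA-DMB, SLA-DOA and CIITA were left out by the filter. CTSD was a DEG under all 14 alternatives. TAP2 was a DEG without DAC replicate 6 (log2 fold change -0.46, unadjusted P = 0.0111 from limma). The causes were not tested. Per the methods of the study, the minipigs were assigned at random to the sham and DAC groups, so there were no pairs to analyse. The study then excluded an animal of each group for unstable heart rates. The sequenced minipigs were a part of each randomized group, and how they were chosen is not stated.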

Other observations

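IRF8, a transcription factor of the dendritic cell list, was at 86.9 FPKM in DAC replicate 4 and between 12.2 and 29.2 FPKM in the other 5 minipigs, and its row overlaps that of COX4I1. JAK2, of the route from interferon gamma to CIITA, was at 1.299, 1.46 and 1.29 FPKM in the sham minipigs and at 1.98, 2.10 and 1.54 FPKM in the DAC minipigs, with groups that did not overlap and an unadjusted P of 0.0509 from limma (adjusted P = 0.592). The unnamed row ENSSSCG00000001458, which overlaps the pseudogene SLA-DRB5 in the class II region, was lowest in DAC replicate 6 at 2.64 FPKM and highest in sham replicate 2 at 5.31 FPKM. These genes were picked after their values were seen.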
